A study of Mus musculus with 10 samples.

Results

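The insulin-like growth factor (IGF) axis was described in 10 mouse pancreatic cancer cell lines through 10 genes: the ligand Igf2, its imprinted neighbour H19, the receptors Igf1r and Igf2r, and the binding proteins Igfbp2 to Igfbp7. The genes were selected by name from the 49568 genes of the deposited table, and H19 was picked for its higher level in KPCAf/f lines on these same values, so its difference is described here and not tested. The study compared 5 KPC lines (A1081, A1620, A1625, A2031 and A2032) with 5 KPCAf/f lines (A1693, A1809, A1925, A2441 and A3992), all grown in DMEM with 10% fetal bovine serum and antibiotics. KPC is the usual name of a genetically engineered mouse model of pancreatic cancer, whose alleles both groups share. The labels give the genotypes by these names alone. Here f/f was taken to mean a floxed pair of alleles of the gene A, and A to mean Arid1a, the chromatin remodeller of the title of the series. No label says that each line came from a mouse of its own, so the p-values measure the spread between these lines.

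IGF ligands signal through Igf1r, a receptor tyrosine kinase. Igf2r, also the mannose 6-phosphate receptor, binds Igf2 and carries it to lysosomes. The Igfbp proteins hold IGFs outside the cell and are cut by proteases that set the ligand free. H19 is a non-coding RNA made from the maternal chromosome, while Igf2 is made from the paternal one, and both are high in the fetus and silenced in most adult tissues. In tumours of the pancreas the axis is known as a route for growth and survival signals between tumour cells and stroma.

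Levels are normalized counts, the reads of a gene divided by the size factor of its line. The lines held 15124888 to 20419830 reads each, and 1 read was worth between 0.818 and 1.32 normalized counts. Epithelial markers were present: all 10 on a list that includes Krt8, Krt18, Krt19 and Cdh1 reached 10 normalized counts in every line but A1693, where 8 did. Of these 8, Cdh1 and Krt7 (10.8 each), Epcam and Muc1 (15.3 each) were barely above 10 in A1693, where Cdh1 was at 3143 to 22853 in the other lines. A list of 12 fibroblast or mesenchymal markers summed to 65.0 to 189 in the KPC lines and to 16758 to 97058 in the KPCAf/f lines. In every KPC line 8 of these 12 stayed under 10, Pdgfrb, Col1a2, Dcn and Thy1 among them, and Lum and Fap had 0 reads. Others on the list were above 10 in KPC lines. Col1a1 was at 29.4 to 141 in every KPC line, and Pdgfra at 14.2 to 54.8 in all but A1620 (2.65). Prrx1 reached 15.6 in A2031 and Twist2 31.3 in A1625. In each KPCAf/f line 8 to 11 of the 12 reached 10, but Fap was at most 4.50 there. Lum was at most 7.05 in the KPCAf/f lines other than A1693. Thy1 was at 2.53 to 3.37 in A1809, A1925 and A2441, and Dcn at 2.46 in A1809. Endocrine islet markers summed to at most 1.76 in any line. Reads of 4 Y-linked genes numbered 1148 to 3415 in each KPC line and 0 to 3 in each KPCAf/f line, so genotype cannot be told apart from the presence of Y-linked RNA. Line A1620 stood apart by transcript length, with a slope of -0.65 on the log2 scale per doubling of length. The slope also split by genotype. Every KPCAf/f line had a slope between 0.10 and 0.15, above all KPC slopes, which apart from A1620 were -0.02 to 0.04. A limma fit on levels corrected for transcript length called 237 of 12780 genes at an adjusted p under 0.05, against 229 of 13089 without the correction. With it the log2 fold change of Igf1r went from 0.61 to 0.24, of Igf2r from 1.81 to 1.49 and of Igfbp6 from 6.06 to 6.35. The cause of the trend was not tested. Arid1a itself had a log2 fold change of -0.42 (limma adjusted p = 0.563), and a gene-level count does not check the loss of a floxed exon. A1620 had the lowest count, 820. The remaining KPC lines, at 1915 to 3109, lay above all KPCAf/f lines, at 1253 to 1785. Leaving out A1620 gave -0.72 (limma adjusted p = 0.0857). Array weights gave -0.77 (0.0516) and length-corrected levels -0.70 (0.0597). Leaving out A1625 gave -0.24 (0.743). Over all settings the change was -0.80 to -0.24, and none passed 0.05.

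H19 was close to silent in the KPC lines and present in all KPCAf/f lines. Its normalized count was 5.68 in A1081 and 0 in A1620, A1625, A2031 and A2032. Among the KPCAf/f lines it was 393 in A1693, 96.6 in A1809, 29.5 in A1925, 21.4 in A2441 and 192 in A3992. The groups did not overlap, but the KPCAf/f lines themselves spread widely, with A1693 highest and A2441 lowest. The means were 1.1 ± 2.5 (SD, n = 5) in KPC, from 6 reads that all came from A1081, and 147 ± 154 (SD, n = 5) in KPCAf/f, from 827 reads. The ratio of these read rates was 117 (95% interval of counting error alone 53.4 to 319), and the difference was 5.90 on log2(normalized count + 1). Against the 4 KPC lines at 0, with 3 reads over these lines as the upper limit that a count of 0 allows, the KPCAf/f mean was at least 178-fold higher. That figure leaves out A1081, and the lowest KPCAf/f line, A2441, was only 3.76-fold above A1081. Without A1693 the KPCAf/f mean was 84.9 ± 79.0 (SD, n = 4). In bulk RNA, fewer cells with a transcript and less of it per cell cannot be told apart.

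The H19 gene lies on chromosome 7 at 142575529 to 142578143 of GRCm38, on the minus strand, and the annotation calls it a lincRNA with up to 5 exons. It is the host of microRNA 675, whose hairpin at chr7:142577064-142577147 falls in an exon of 3 of the 7 annotated H19 transcripts. The 2 mature arms are shown because they are the short products this host RNA can give, with the seed, bases 2 to 8, in capitals (RefSeq, GRCm38.p6, minus strand).
mmu-miR-675-5p: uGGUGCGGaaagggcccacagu
mmu-miR-675-3p: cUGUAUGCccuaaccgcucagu
Each seed was held by 1 mature mouse miRNA of the RefSeq table, so the 2 arms share a seed neither with each other nor with another entry. The row of the miRNA gene itself had 0 reads in all 10 lines, in libraries of poly(A) RNA that are not made to hold mature miRNAs. The hairpin also overlaps H19 on the same strand, and how reads shared by 2 genes were counted was not examined here.

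Igf2 was barely transcribed in any line. The paternally expressed ligand gene lies 72623 bases from H19 on the same strand (chromosome 7, 142650766 to 142666816). Its normalized count was 1.89 in A1081, 2.65 in A1620 and 0 in A1625, A2031 and A2032. In the KPCAf/f lines it was 9.0 in A1693, 6.55 in A1809, 6.74 in A1925, 7.87 in A2441 and 0.881 in A3992. A3992 fell among the KPC values, so the groups overlapped, while the other 4 KPCAf/f lines were above every KPC line. The groups held 4 and 34 reads, 0.909 ± 1.27 against 6.21 ± 3.14 (SD, n = 5 each), a rate ratio of 7.20 (95% counting interval 2.57 to 27.9). Igf2 did not reach the 10 normalized counts in at least 5 lines that the test across all genes required. A two-sided exact permutation test, which assigned the lines to groups of 5 in every possible way, gave p = 0.0238, unadjusted, and limma without the filter gave an adjusted p of 0.187. Gm49394, a protein-coding model on the same strand that overlaps Igf2, was not analysed here, and the antisense Igf2os held at most 1 read in any line.

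Per kilobase of the longest annotated transcript, H19 was above Igf2 in each of the 5 KPCAf/f lines. H19 ranged there from 9.34 to 172 normalized counts per kb and Igf2 from 0.187 to 1.91. Both ranked high in A1693, but A3992 had the second highest H19 and the lowest Igf2 of its group.

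Among the other ligands, Igf1 was low as well. Its normalized count was 1.03 to 3.79 in the KPC lines, 0.900 in A1693, 3.27 in A1809, 53.1 in A1925, 8.99 in A2441 and 21.1 in A3992. Ins1 and Ins2, the mouse insulin genes, had 0 reads in all lines, which allows up to 3 reads in a line.

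Of the 10 genes, 8 passed the filter on low values. Besides H19, 7 were tested, and 1 of them, Igfbp6, was called higher in KPCAf/f by limma at an adjusted p under 0.05, while none was called lower. Across all 13089 genes tested, 1.36% were called higher and 0.39% lower, and 2.84% had all KPCAf/f lines above all KPC lines. H19 and Igfbp6 were the members with such non-overlapping groups. Both passed the filter through their KPCAf/f values alone: 66 tested genes had every KPC line under 10, and 87.9% of those 66 were called higher, so a call is the common outcome for a gene of that kind.

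**Figure D1:**
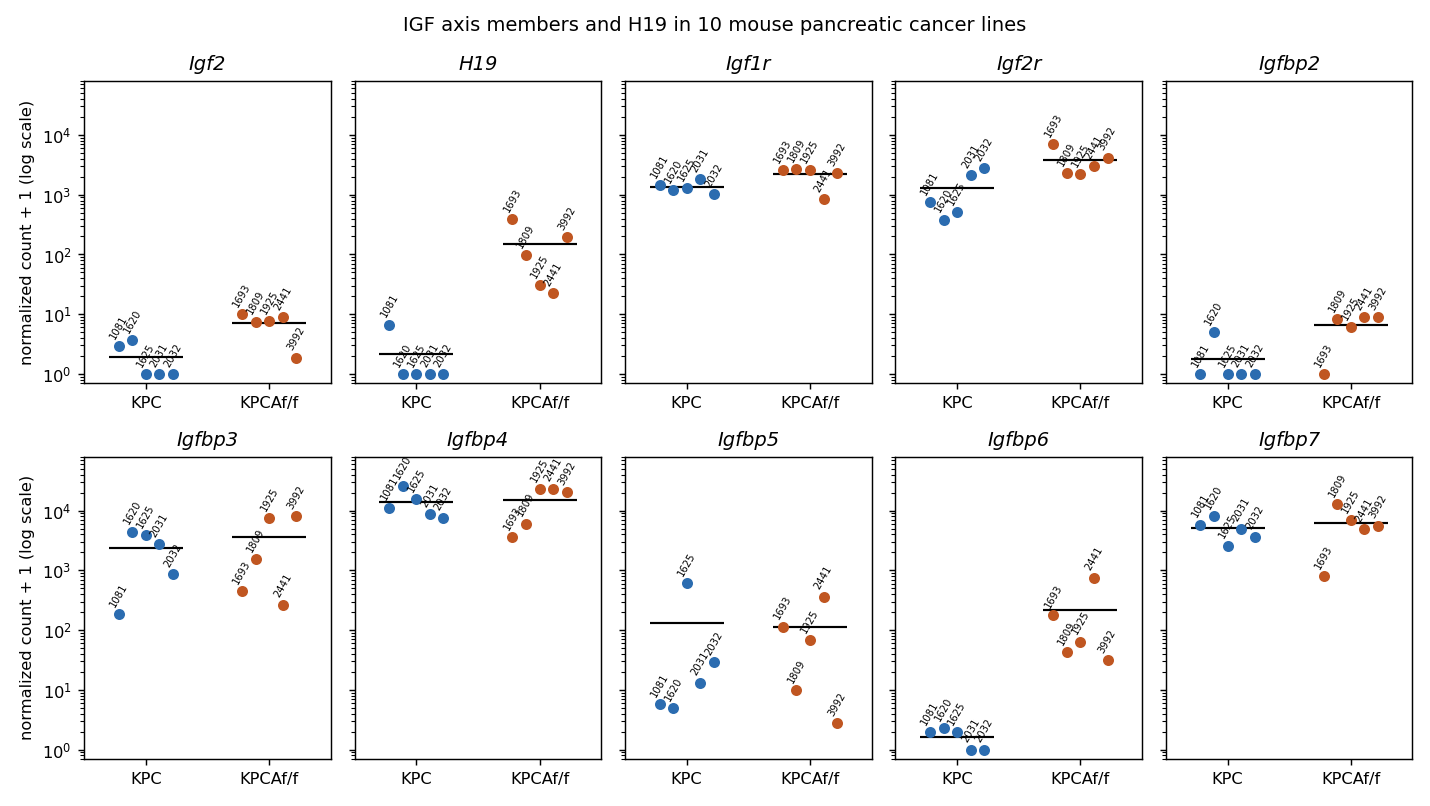
Normalized count plus 1 (log axis) of the 10 genes in each line, labelled by line number, with KPC lines in blue, KPCAf/f lines in orange and the group mean as a black bar. H19 (0 to 5.68 against 21.4 to 393) and Igfbp6 (0 to 1.32 against 30.8 to 755) have groups that do not overlap.

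Igfbp6 encodes a binding protein that prefers Igf2 over Igf1, and it was the member that separated the genotypes most fully beside H19. Its normalized count was 0.947 in A1081, 1.32 in A1620, 0.978 in A1625 and 0 in A2031 and A2032. It was 177 in A1693, 42.6 in A1809, 63.2 in A1925, 755 in A2441 and 30.8 in A3992. The gene has 4 exons on chromosome 15, from 102144362 to 102149511 on the plus strand of GRCm38. Each KPC line held at most 1 read, and the lowest KPCAf/f line was far above them. The means were 0.650 ± 0.612 from 3 reads in KPC and 214 ± 308 from 1031 reads in KPCAf/f (SD, n = 5 each). The read rates had a ratio of 291 (95% counting interval 99.4 to 1415).

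Igfbp6 met the filter through its KPCAf/f lines alone, which limits what its p-values add to the values above. The fitted difference of Igfbp6 was 6.06 ± 0.82 (SE) on the log2(normalized count + 1) scale, with a limma adjusted p of 0.00303, and the count was higher in 5 of 5 KPCAf/f lines. The exact permutation test gave p = 0.00794, unadjusted and the smallest that 5 lines against 5 allow. On the recovered reads, edgeR's quasi-likelihood test gave an adjusted p of 0.0100, DESeq2 1.83e-09 and limma-voom 0.0434, where those tools called 1.31%, 5.7% and 0.802% of genes in either direction. With each line left out in turn, the limma adjusted p ranged from 0.00272 to 0.0117. It was 0.00382 with no filter and 0.0668 among genes with a mean of at least 100. A2441 alone carried much of the mean, which was 78.5 ± 67.2 (SD, n = 4) without it.

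The order of the KPCAf/f lines differed between the genes. A2441 had the highest Igfbp6 and the lowest H19, while A1693 had the highest H19 and the second highest Igfbp6. The fibroblast marker sum was 97058 in A1693, 17470 in A1809, 24289 in A1925, 28135 in A2441 and 16758 in A3992. The order of these sums leans on a few genes. Col1a2 was at 71337 in A1693 and 959 in A2441, and Col1a1 at 3259 and 17935 in the same lines. The epithelial sum was 182341 to 374518 in KPC lines and 6886 to 135406 in KPCAf/f lines. H19, Igfbp6 and these sums therefore moved with genotype together. The part of the marker genes in the H19 and Igfbp6 differences was not tested.

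The 250 bases before the Igfbp6 start are shown beside those of Igfbp4, because Igfbp6 was nearly silent in KPC lines while Igfbp4 was high in every line. Capitals mark the match to TATAAA on either strand. The windows are chr15:102143936-102144185 (plus strand) and chr11:99040994-99041243 (plus strand) of GRCm38.p6 from RefSeq, whose Igfbp6 start lies 176 bases before the GENCODE gene start.
Igfbp6: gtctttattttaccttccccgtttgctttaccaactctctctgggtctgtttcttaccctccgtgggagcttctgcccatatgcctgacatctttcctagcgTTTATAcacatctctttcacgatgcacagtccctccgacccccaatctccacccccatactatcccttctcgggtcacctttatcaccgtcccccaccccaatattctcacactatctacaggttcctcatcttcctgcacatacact
Igfbp4: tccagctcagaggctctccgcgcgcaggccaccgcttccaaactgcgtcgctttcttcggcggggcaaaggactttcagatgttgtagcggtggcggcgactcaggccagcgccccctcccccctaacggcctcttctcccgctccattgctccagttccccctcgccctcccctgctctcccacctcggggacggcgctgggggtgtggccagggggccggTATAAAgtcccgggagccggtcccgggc
The Igfbp6 window held 7 CpG and the Igfbp4 window 22, numbers that 46.3% and 14.8% of the 32851 RefSeq promoter windows reached. TATAAA stood 28 bases before the start of Igfbp4, on the plus strand as printed. Its reverse complement began 148 bases before the start of Igfbp6. The letters occur in 12.4% of all windows, so a match is a description of the sequence and not a site. Searches on both strands for GGGCGG (in 32.7% of windows), CAGGTG (17.2%) and TGANTCA (6.75%) found none of them in either window.

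The receptors were expressed in all lines, and neither passed the test. Igf1r lies on chromosome 7 (67952827 to 68233668, plus strand), far from Igf2 and H19, and Igf2r on chromosome 17 (12682406 to 12769664, minus strand). Igf1r had a normalized count of 1450 in A1081, 1207 in A1620, 1289 in A1625, 1815 in A2031 and 1027 in A2032. It was 2558 in A1693, 2704 in A1809, 2581 in A1925, 849 in A2441 and 2308 in A3992. The other 4 KPCAf/f lines lay above every KPC line while A2441 lay below all of them. The means were 1357 ± 298 and 2200 ± 769 (SD, n = 5 each), a log2 difference of 0.61 ± 0.32 (SE; limma adjusted p = 0.405; exact permutation p = 0.127). Without A2441 the difference was 0.93 with an adjusted p of 0.0612, and with a correction for transcript length it was 0.24.

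Igf2r, which clears Igf2, had group means further apart than Igf1r. It had a normalized count of 745 in A1081, 383 in A1620, 518 in A1625, 2108 in A2031 and 2757 in A2032. It was 7036 in A1693, 2317 in A1809, 2190 in A1925, 3031 in A2441 and 4169 in A3992. A1081, A1620 and A1625 were low, and the groups overlapped through A2032, which lay above A1809 and A1925. The means were 1302 ± 1065 and 3749 ± 1999 (SD, n = 5 each), a log2 difference of 1.81 ± 0.56 (SE). This missed the threshold in the fit across all genes (limma adjusted p = 0.157), with an unadjusted exact permutation p of 0.0317. Airn, the antisense RNA that overlaps Igf2r and whose reads could be shared with it if strand was not used, was at 33.1 to 133 in all lines (log2 fold change 0.33, limma adjusted p = 0.718).

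**Figure D2:**
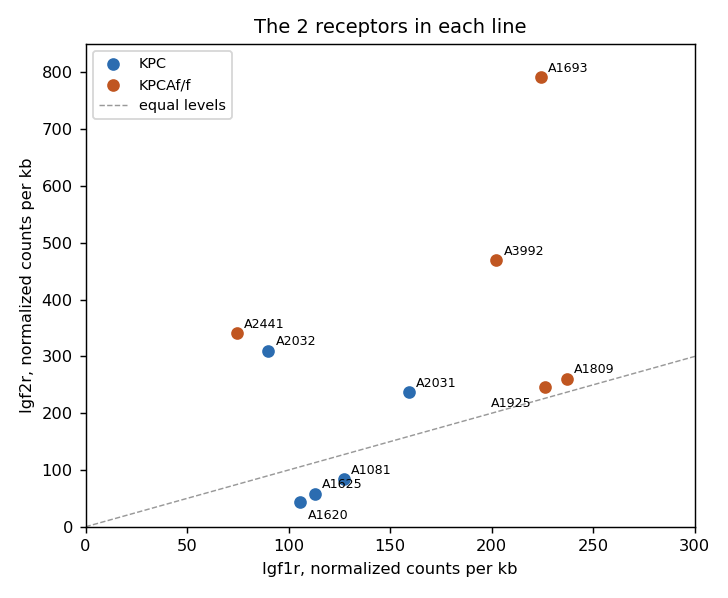
Igf2r against Igf1r in normalized counts per kb of the longest annotated transcript, KPC lines in blue and KPCAf/f lines in orange, with a dashed line of equal levels. All 5 KPCAf/f lines and KPC lines A2031 and A2032 lie above the dashed line on this scale, A1809 and A1925 only just (ratios 1.10 and 1.09).

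Per kilobase, the ratio of Igf2r to Igf1r had a median of 0.659 in KPC (0.407 to 3.45) and of 2.32 in KPCAf/f (1.09 to 4.58). It was above 1 in A2031, A2032 and all 5 KPCAf/f lines, and highest in A2441, where Igf1r was lowest. With mean transcript lengths the ratio was below 1 in A1809 (0.869) and A1925 (0.861), and above 1 in 3 of 5 KPCAf/f lines and in the same KPC lines. Insr, the insulin receptor that can pair with Igf1r, was at 634 ± 225 and 805 ± 306 normalized counts (SD, n = 5 each), with a limma adjusted p of 0.691.

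The binding proteins Igfbp4 (chromosome 11, 99041244 to 99054392), Igfbp7 (chromosome 5, 77349240 to 77408041) and Igfbp3 (chromosome 11, 7206086 to 7213923) made up nearly all Igfbp RNA. As shares of Igfbp1 to Igfbp7 in normalized counts per kb, these 3 summed to between 98.7% and 99.98% in KPC lines and between 90.9% and 99.7% in KPCAf/f lines. Igfbp4, an inhibitor of IGF action that is cut by pappalysin, had a normalized count of 11303 in A1081, 25410 in A1620, 15605 in A1625, 8825 in A2031 and 7649 in A2032. It was 3564 in A1693, 6071 in A1809, 23242 in A1925, 23485 in A2441 and 20526 in A3992. A1693 and A1809 lay below every KPC line, and the other 3 KPCAf/f lines lay within the KPC range. The means were 13758 ± 7191 and 15378 ± 9750 (SD, n = 5 each), with a log2 difference of -0.06 ± 0.57 (SE; limma adjusted p = 0.969) whose sign turned under quantile scaling, edgeR, DESeq2 and array weights.

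Igfbp7, a secreted relative with low affinity for IGFs, was also high throughout. It had a normalized count of 5868 in A1081, 8166 in A1620, 2604 in A1625, 5015 in A2031 and 3666 in A2032. It was 801 in A1693, 12890 in A1809, 6988 in A1925, 4938 in A2441 and 5607 in A3992. The lowest and the highest of the 10 lines were both KPCAf/f. The difference was -0.04 ± 0.63 (SE) on the log2 scale (limma adjusted p = 0.983), and its sign turned under the same settings and with the length correction. The gene shares its last bases with Polr2b on the opposite strand, which was at 2798 to 4694 in all lines.

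Igfbp3, the main carrier of IGFs in blood and a p53 target, varied widely within both groups. Its normalized count was 185 in A1081, 4451 in A1620, 3852 in A1625, 2739 in A2031 and 863 in A2032. It was 456 in A1693, 1539 in A1809, 7457 in A1925, 268 in A2441 and 8233 in A3992. Low and high lines occurred in both genotypes, and the log2 difference was 0.12 ± 1.13 (SE; limma adjusted p = 0.969).

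Igfbp5 (chromosome 1, 72857932 to 72874884), which binds matrix as well as IGFs, was low in most lines and high in a few. Its normalized count was 4.73 in A1081, 3.97 in A1620, 616 in A1625, 12.3 in A2031 and 27.8 in A2032. It was 113 in A1693, 9.0 in A1809, 66.6 in A1925, 364 in A2441 and 1.76 in A3992. The highest of all lines was a KPC line and the lowest a KPCAf/f line. The means were 133 ± 270 and 111 ± 149 (SD, n = 5 each), and without A1625 the KPC mean was 12.2 ± 11.1 and without A2441 the KPCAf/f mean was 47.7 ± 52.6 (SD, n = 4 each). The log2 difference was 0.71 ± 1.55 (SE; limma adjusted p = 0.847).

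Igfbp2, which lies 5458 bases from Igfbp5 on chromosome 1 (72824503 to 72852474), was almost silent. It had a normalized count of 3.97 in A1620 and 0 in the other 4 KPC lines. It was 0 in A1693, 7.37 in A1809, 5.06 in A1925, 7.87 in A2441 and 7.93 in A3992. A1693 at 0 made the groups overlap. The reads numbered 3 and 31, a rate ratio of 8.76 (95% counting interval 2.73 to 44.8), and the gene was outside the test across all genes. The exact permutation test gave p = 0.0476, unadjusted, and limma without the filter an adjusted p of 0.279.

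**Figure D3:**
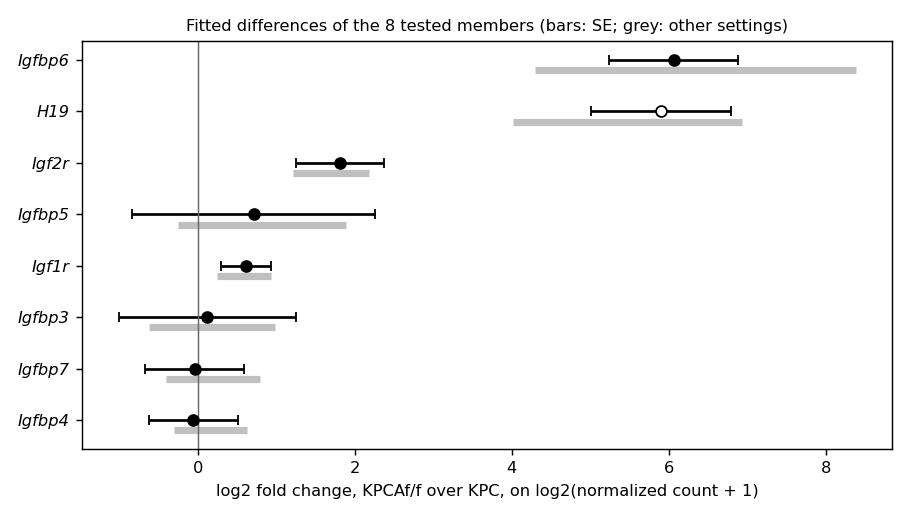
Log2 fold change, KPCAf/f over KPC, of the 8 members that passed the filter, with the standard error as a bar and the range over up to 22 other settings in grey below each point (H19 had no value with a mean of at least 100). H19 is an open circle because it was picked for this difference, and among the rest Igfbp6 lies at 6.06.

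The leading binding protein depended on the line and on the transcript length used. Per kb of the longest transcript, Igfbp7 led in 4 of 5 KPC lines and Igfbp4 in A1625. Igfbp4 led in 4 of 5 KPCAf/f lines, and Igfbp7 led in A1809 with a share of 82.6%. With the mean transcript length in its place, Igfbp4 led in 5 of 5 KPC and 4 of 5 KPCAf/f lines. The median share of Igfbp4 per kb of the longest transcript was 37.3% in KPC and 40.3% in KPCAf/f. Igfbp6 took at most 0.0111% of Igfbp RNA in KPC lines and 0.206% to 8.12% in KPCAf/f lines, with A1693 highest. A1693 also had the lowest summed Igfbp level, at 1965 per kb against 5413 to 15281 in the other lines.

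**Figure D4:**
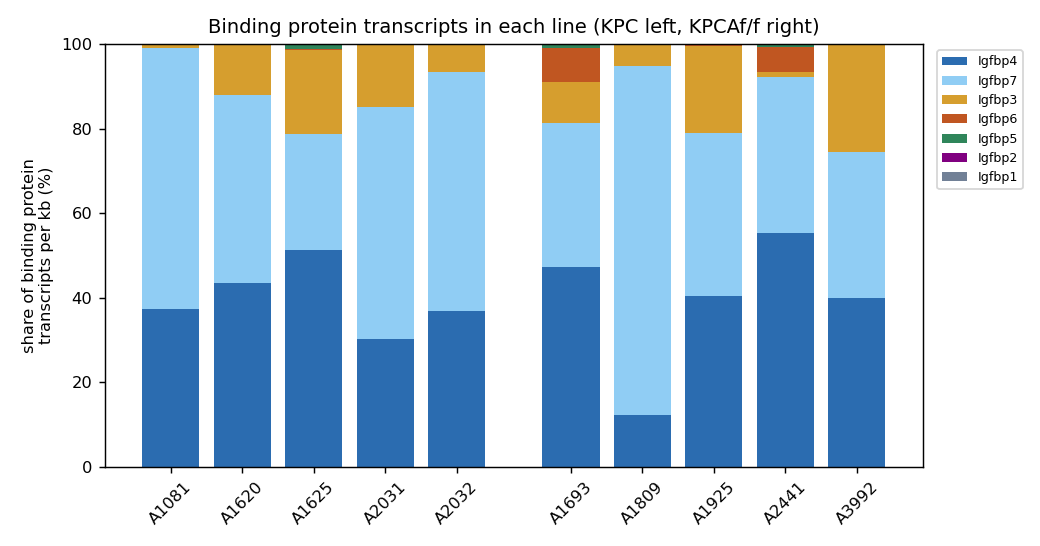
Share of each binding protein in the Igfbp1 to Igfbp7 sum of normalized counts per kb of the longest transcript, 1 bar per line, KPC on the left and KPCAf/f on the right. Igfbp4 and Igfbp7 fill 74.5% to 99.0% of every bar, and Igfbp6 is visible in A1693 (8.12%) and A2441 (6.12%).

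In KPC lines the order of the medians per kb of the longest transcript was Igfbp7 (4180), Igfbp4 (2950), Igfbp3 (1131), Igf1r (113), Igf2r (83.8), Igfbp5 (2.05) and Igfbp6 (0.851), with H19, Igf2 and Igfbp2 at a median of 0. Of neighbours in that order only Igfbp4 and Igfbp3 had ranges that did not overlap (lowest 1997 against highest 1838). In KPCAf/f lines it was Igfbp4 (5358), Igfbp7 (4673), Igfbp3 (636), Igf2r (341), Igf1r (224), Igfbp6 (56.9), H19 (42.2), Igfbp5 (11.1), Igfbp2 (5.64) and Igf2 (1.43). There only Igf2r and Igf1r had ranges apart (lowest 246 against highest 237), and in normalized counts with no length division these overlapped (lowest 2190 against highest 2704).

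Genes around the axis were taken from 7 lists of 133 genes in all. Of the 89 tested, 3 rose, none fell and 13 had an unadjusted limma p under 0.05. Over all 13089 genes tested, 178 (1.36%) rose, 51 (0.39%) fell and 1917 had such a p. The median log2 fold change was 0.20 on the lists and -0.01 over all genes tested. No test of the lists was made. Of the 3 that rose, Mmp2 and Lsp1 met the filter through their 5 KPCAf/f lines, with 1 KPC line over 10 each. This limits what their calls add to the count.

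Among receptors, adaptors and ligands outside the 10 genes, 9 of 18 were tested and none passed. Gab1, a docking protein of growth factor receptors, was at 180 ± 88.8 and 450 ± 138 (SD, n = 5 each) without overlap between the groups (limma adjusted p = 0.0983). Grb10, an imprinted adaptor that restrains Igf1r and insulin receptor signals, was at 3141 in A1693, 2500 in A1925 and 3175 in A3992. It was at 9.82 in A1809, 1.12 in A2441 and 1.89 to 28.4 in the KPC lines (limma adjusted p = 0.288). Irs1 and Irs2, the main docking proteins of Igf1r, had adjusted p-values of 0.585 and 0.616 by limma.

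Among the proteases that cut binding proteins, and their inhibitors, 14 of 20 were tested and 2 rose. Adamts1, a secreted metalloprotease, went from 144 ± 103 to 1044 ± 648 (SD, n = 5 each), a log2 change of 2.94 ± 0.54 (SE; limma adjusted p = 0.0193). The call was lost, at limma adjusted p-values of 0.0504 to 0.0551, without A1620, A1625 or A2441. It was also lost by limma-voom (adjusted p = 0.0535) and by limma without both A1620 and A1693 (0.0858). The other 17 of 22 settings kept it. Mmp2, gelatinase A, went from 3.63 ± 5.03 to 455 ± 749, a log2 change of 5.70 ± 1.16 (SE; limma adjusted p = 0.0328). It met the filter through its 5 KPCAf/f lines, with 1 KPC line over 10. It ranged from 29.2 to 1773 in KPCAf/f lines. Its limma adjusted p was 0.0846 with A2032 left out and over 0.05 also without A1081, A1620, A2031, A1925 or A3992. The adjusted p was 0.0599 by edgeR and 0.162 by limma-voom. By limma it was 0.0835 among genes with a mean of at least 100 and 0.0541 without both A1620 and A1693. The other 12 of 22 settings kept the call. Prss23 (limma adjusted p = 0.115) and Plau (adjusted p = 0.120) did not pass. Pappa and Pappa2, the pappalysins, held 3 reads each in KPC and 32 and 40 in KPCAf/f and were outside the test.

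None of the 10 tested genes of 13 on the list of IGF2 mRNA-binding and fetal proteins passed. Plag1, a zinc finger activator of Igf2, had the smallest p, at 29.3 ± 21.6 and 147 ± 173 (SD, n = 5 each; limma adjusted p = 0.313), with A1693 highest at 450.1. Igf2bp1 (1595 ± 637 and 1437 ± 368) and Igf2bp2 (1865 ± 800 and 2432 ± 1396; SD, n = 5 each) were expressed in all lines. Igf2bp3 was between 9.47 and 28.6 in 5 lines and between 321 and 1328 in the other 5, with both genotypes in each set. Downstream, none of 23 tested genes of the PI3K, AKT and FOXO branch passed. The smallest p there was that of Pik3r2, a regulatory subunit of PI3K, at 2376 ± 448 and 1596 ± 518 (SD, n = 5 each; limma adjusted p = 0.296).

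**Figure D5:**
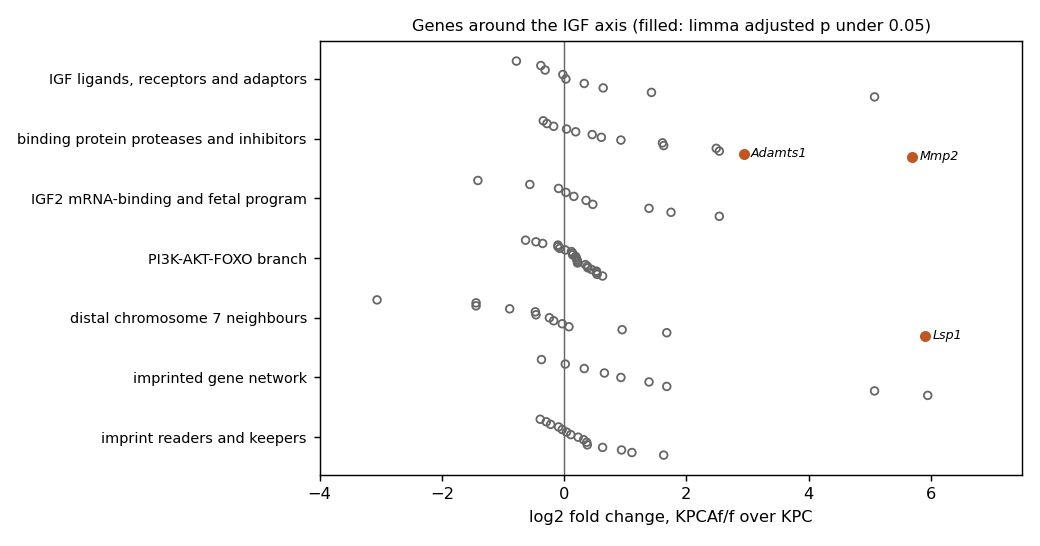
Log2 fold change of each tested gene on the 7 lists around the axis, 1 circle per gene, filled where limma's adjusted p was under 0.05. Adamts1 (2.94), Mmp2 (5.70) and Lsp1 (5.91) are the filled circles, and a gene on 2 lists is drawn in each.

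On distal chromosome 7, around Igf2 and H19, 13 of 22 genes were tested and 1 rose. Lsp1, a leukocyte actin-binding protein, was at 1.96 to 12.4 in the KPC lines and at 118 to 1249 in the KPCAf/f lines (log2 change 5.91 ± 0.65 SE; limma adjusted p = 0.0010). It met the filter through its 5 KPCAf/f lines, with 1 KPC line over 10. The 6 immune markers summed to 34.6 to 81.4 in KPC and 59.0 to 293 in KPCAf/f lines. Most of each sum was Cd68, though in A3992 it was 36.1 of 59.0. Cd68 was at 31.3 to 70.1 in KPC lines and 36.1 to 86.6 in KPCAf/f lines apart from A1693, which had 293. Lyz2 had 0 reads in every KPC line and reached 20.3 in A3992, and Cd3e and Adgre1 were at 1 read or less in every line. Their part in the Lsp1 difference was not tested. Phlda2, an imprinted growth restrainer of the placenta, was at 331, 329, 415, 343 and 103 in the KPC lines. In the KPCAf/f lines it was at 30.6, 136, 11.8, 11.2 and 58.2, so A1809 overlapped A2032 (log2 fold change -3.06, limma adjusted p = 0.0531). Cdkn1c, a growth inhibitor of the same cluster, had an adjusted p of 0.348 by limma.

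Of the network of imprinted genes, 9 of 22 were tested and none passed. Sgce, sarcoglycan epsilon, was at 14.5 in A2031 and 0 in the other KPC lines. It was 695 in A1693, 34.4 in A1809, 97.0 in A1925, 5.62 in A2441 and 877 in A3992 (limma adjusted p = 0.0565). Among the readers and keepers of imprints, 15 of 20 were tested and none passed. Dnmt3a, a DNA methyltransferase, had the smallest p, at 497 ± 137 and 941 ± 201 (SD, n = 5 each; limma adjusted p = 0.101). Ctcf, the factor that binds the control region between Igf2 and H19, had a log2 fold change of -0.03 (adjusted p = 0.969).

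The genes whose levels were most like H19 across the 10 lines, by Pearson's r on log2(normalized count + 1), were Rab30 (0.973), Lrrn4cl (0.963), Dchs2 (0.963), Mrc2 (0.960) and Col1a2 (0.955). All 5 had KPCAf/f lines above all KPC lines, and A1693 was their highest line. H19 has the same split and the same highest line, so this follows largely from picking genes by their likeness to it. Of all 13089 genes tested, 2.84% had all KPCAf/f lines above all KPC lines. Col1a2, a fibrillar collagen chain on the fibroblast list, was at 1.03 to 5.59 in KPC and 959 to 71337 in KPCAf/f lines. The genes most like Igf2 were Apobr (0.926), Anxa1 (0.925), Hecw2 (0.925), Prss23 (0.920) and Prnp (0.918), over Igf2 values that rest on 0 to 10 reads a line. The 10 points share the genotype split and, for H19, 4 lines at 0, so the coefficients describe these lines.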

How the data were processed

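RNA of 10 cultured lines, 5 KPC and 5 KPCAf/f, was sequenced from TruSeq Stranded mRNA libraries, per the labels' protocols. Reads were handled with bcl2fastq 1.8.4, Trimmomatic 0.36, STAR 2.5.2b, featureCounts of Subread 1.5.0p3, DESeq2 1.14.1 and R 3.3.2, per the submitters' processing notes. Both builds, GRCm38.p5 and mm9, stand there without a role. For the counting, annotation and use of strand were not given in the sources used here. The authors deposited 1 table of DESeq2-normalized counts, a depth-scaled signal. Whole reads were recovered from it by multiplying each line's values by its size factor, and 100% of values came out whole within 0.001.

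The 10 genes and the lists around them were chosen with earlier results of these data known. Groups were compared by limma (version 3.58.1, trend option, two-sided) on log2(normalized count + 1). The Benjamini-Hochberg adjustment covered 13089 genes, those with 10 or more normalized counts in 5 or more lines. Single genes other than H19, 9 in all, were also tested by exact permutation (two-sided, every assignment of the lines to groups of 5), and those p-values are not adjusted. The recovered reads were tested with edgeR 4.0.16 (quasi-likelihood), DESeq2 1.42.0 and limma-voom as alternatives, and the code was tested on simulated data. At an adjusted p under 0.05, 20.5% of DESeq2's calls on the simulated counts were false. The share was 5.16% for limma, 4.64% for edgeR and 6.04% for limma-voom. Other alternatives were pseudocounts of 0.5 and 5, no filter, a mean of at least 100, TMM and quantile scaling, array weights, a loess correction for transcript length, and lines left out. Lines of a group differed by more than sampling noise (chi-square over degrees of freedom at least 55.6), and all were counted. The text names the 10 genes, Arid1a, every called gene of a list and up to 4 others by smallest p, and the 5 genes most like H19 and Igf2 by correlation. Igf1, Ins1, Ins2, Insr, Irs1, Irs2, the Igf2bp genes, Ctcf, Pappa, Pappa2 and overlapping genes were added after their values were seen. Positions and lengths came from GENCODE M21 (GRCm38), and sequences from RefSeq tables of GRCm38.p6, where 9 of the 10 genes had a promoter entry. Intervals cover counting error only.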

Additional observations from a re-analysis of the deposited data

Results flagged for a closer look

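Within a genotype, 5 of the 20 sets of 5 values had a line set far from the rest, where the gap to the nearest line exceeded 0.71 of the set's range; chance gives about 1 in 20 such sets where values are normally distributed, which these counts are not. In KPC, A1081 was the only line with H19 (5.68 normalized counts), A1620 the only line with Igfbp2 (3.97), and A1625 had an Igfbp5 level of 616 where the next line had 27.8. In KPCAf/f, A2441 had an Igf1r level of 849 where the next lowest line had 2308, and an Igfbp6 level of 755 where the next highest had 177. For H19 and Igfbp2 the other 4 KPC lines were at 0, so any read in 1 line fills the whole range; these values rest on 6 and 3 reads.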

How the results depend on the processing

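Igfbp6 was the 1 member called in every setting but the filter on a mean of at least 100, where 0 were called, H19 was outside the filter and the genes tested were 10572. Igfbp6 met the main filter through its KPCAf/f lines alone, which limits what these calls add to its values. The H19 difference was 4.01 with a pseudocount of 5 and 5.36 to 6.45 with each line left out. The 3 list genes called higher became 7 without a filter, 9 by DESeq2, 6 with array weights, 1 by limma-voom, 1 without A1620 and A1693, and 1 to 3 with each line left out (1 without A1620). The list genes called lower, 0 by limma, became 1 with a pseudocount of 5, no filter, quantile scaling, DESeq2 or array weights, and 0 to 1 with each line left out (1 without A2032 or A1809). The 4 genes under an unadjusted exact permutation p of 0.05 (Igf2, Igf2r, Igfbp2 and Igfbp6) became 2 without A1620 and A1693 and 2 to 4 with each line left out (2 without A3992), alternatives chosen after seeing the data. The median Igfbp4 share became 64.9% (KPC) and 66.9% (KPCAf/f) with mean transcript lengths, and 65.1% and 61.5% with no length division.

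Uncalled members turned sign. Igfbp4 had a log2 fold change of 0.28 with quantile scaling, 0.16 by edgeR, 0.14 by DESeq2, 0.47 with array weights and 0.63 without A1620 and A1693. Igfbp7 had 0.16, 0.31, 0.29, 0.43 and 0.79 in the same order, and 0.22 with the length correction. Igfbp5 had -0.26 by edgeR, -0.26 by DESeq2, -0.10 with array weights and -0.25 without A1620 and A1693. With each line left out, Igfbp3 ranged from -0.63 to 0.78, Igfbp4 from -0.31 to 0.37, Igfbp5 from -0.11 to 1.89 and Igfbp7 from -0.41 to 0.59. The cause was not tested. Over all genes, limma called 229, DESeq2 731, limma-voom 105 and array weights 586. Leaving out lines kept from 2 to 5 of the 5 genes most like H19 and from 0 to 4 of those most like Igf2. Depth limits Igf2 and Igfbp2, which rest on 4 and 3 reads in KPC and 34 and 31 in KPCAf/f. No paired analysis was possible because the labels give each line its own number and no number is shared between the genotypes.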

Other observations

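Lines of a genotype had their own IGF profiles. A1693 had the highest H19, Igf2 and Igf2r levels of the 10 lines (393, 9.0 and 7036 normalized counts) and the lowest Igfbp4 and Igfbp7 (3564 and 801). The Igf2 rank of A1693 rests on 10 reads, against 8 in A1809, 8 in A1925 and 7 in A2441. A2441 had the highest Igfbp6 (755) with the lowest Igf1r (849). A3992 had the highest Igfbp3 (8233) and the lowest Igfbp5 (1.76), and it alone held Igfals, the acid-labile subunit of the circulating IGF complex, at 219 normalized counts against at most 4.09 in the other lines.

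Imprinted genes outside the test were also uneven. Meg3, a maternally expressed non-coding RNA, had 2 reads in KPC and 865 in KPCAf/f lines, at 492 in A1693, 76.9 in A1809, 6.74 in A1925, 32.6 in A2441 and 165 in A3992. Peg10, a retrotransposon-derived gene, had 9 and 6626 reads, 6157 of them in A1693. Peg3 was high in 2 KPC lines, at 2544 in A1625 and 226 in A1081 against at most 16.9 in the other lines. These genes and Igfals were chosen after their values were seen, and no test was made.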
